A study of Mus musculus with 5 samples.

Results

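The genes of cholesterol and fatty acid synthesis were examined in N2A (Neuro-2A) cells, a mouse neuroblastoma line, after knockdown of Upf1, which encodes the RNA helicase at the centre of nonsense-mediated mRNA decay (NMD). The 29 genes were chosen by name as regulators and enzymes of these pathways, and all 29 were found among the 55573 genes of the raw count table. All cells were grown in the same medium with serum and received 60 pmol of siRNA, either the non-targeting Silencer Negative Control #1 (siCtl, 2 libraries, replicates 1 and 3) or an siRNA against Upf1 (siUpf1, 3 libraries, replicates 1, 2 and 3). The libraries were made from polyadenylated RNA of 1 cell line and held 20402205 to 27717594 assigned reads. The labels do not say whether replicates were separate cultures, so p-values measure the spread between these libraries, which may be technical.

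Cells make cholesterol from acetyl-CoA through mevalonate, farnesyl diphosphate, squalene and lanosterol, and they make fatty acids from acetyl-CoA through malonyl-CoA. Transcription of most of these enzymes is driven by the sterol regulatory element-binding proteins (SREBPs), which are held in the endoplasmic reticulum (ER) by SCAP and INSIG proteins while sterols are plentiful and are cleaved in the Golgi when sterols run short. Neural cells of the brain rely largely on their own synthesis, since circulating lipoproteins do not enter the brain.

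The knockdown and the cell type were checked first. Upf1 had 5217 and 5243 normalised read counts (counts divided by the library's size factor) in siCtl and 2403, 2496 and 2449 in siUpf1, which is 46.8% of the siCtl mean (log2 fold change -1.10 with an SE of 0.0507 and a DESeq2 adjusted p of 7.09e-101). Of 20 neuroblastoma and neuronal markers, 17 had at least 10 normalised counts in some library, and the summed counts of the list were 70968 to 71347 in siCtl and 74718 to 79064 in siUpf1. Of the 17 markers tested, 11 were called higher (64.7%, beside 22.0% of all genes tested) and 3 lower (17.6%, beside 22.9%), with a median log2 fold change of 0.39 and a highest of 1.80. The summed counts of glial markers were 518 to 536 in siCtl and 543 to 581 in siUpf1, those of fibroblast markers 288 to 306 and 223 to 258, and those of epithelial markers 35 to 49 and 24 to 41. Blood and endothelial markers summed to 6978 to 7302 in siCtl and 5389 to 5642 in siUpf1, of which Hbb-bs held 5216 to 7041 per library. The defining markers Mog, Kdr, Col3a1, Lum and Krt5 were at 0 in every library, and Ptprc, Sox10 and Epcam were at 5 counts or fewer. The summed counts of every list but the epithelial one did not overlap between the groups, and their part in the results below was not tested. In bulk RNA, fewer cells of a type and less RNA per cell cannot be told apart.

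After Upf1 knockdown, enzyme genes on both sides of squalene (Acat2, Idi1, Fdps, Cyp51, Msmo1 and Ebp) and the SREBP-retention gene Insig1 were lower by at least 0.5 log2 units, and none of the 29 genes was called higher. About the same share of the 29 genes as of all genes was called by DESeq2, at an adjusted p-value under 0.05, but every call was in the same direction. A total of 13 genes (44.8%) were called lower in siUpf1, 0 were called higher and 16 were not called. Over the 15191 genes tested, 44.9% were called, 22.9% lower and 22.0% higher. At an unadjusted p-value under 0.05, 15 of the 29 were lower and 2 higher, beside 3872 lower and 3760 higher of the 15191 genes tested. The quasi-likelihood test of edgeR called 15 lower and 1 higher (Insig2), where 27.1% of all genes it tested were called lower. The median log2 fold change of the 29 genes was -0.13, beside -0.00 over all genes tested. A fall of at least 0.5 log2 units with a call was found for 7 of the 29 (24.1%), beside 8.31% of all genes tested. The 3 siUpf1 libraries all lay under both of the siCtl libraries for 17 genes (58.6%), beside 35.2% of all genes tested. They lay over both for 3, beside 5209 of the 15191 genes tested. In the individual siUpf1 libraries the median log2 ratio of the 29 genes to the siCtl mean was -0.12, -0.11 and -0.13 for replicates 1, 2 and 3. Reads of the 29 genes took 0.642% and 0.636% of the siCtl libraries and 0.584%, 0.579% and 0.585% of the siUpf1 libraries. These shares rest largely on Scd2, Fasn and Acly. From siCtl to siUpf1, mean normalised counts of Fasn went from 29695 to 21303, of Acly from 27370 to 26233 and of Scd2 from 38580 to 40876.

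**Figure D1:**
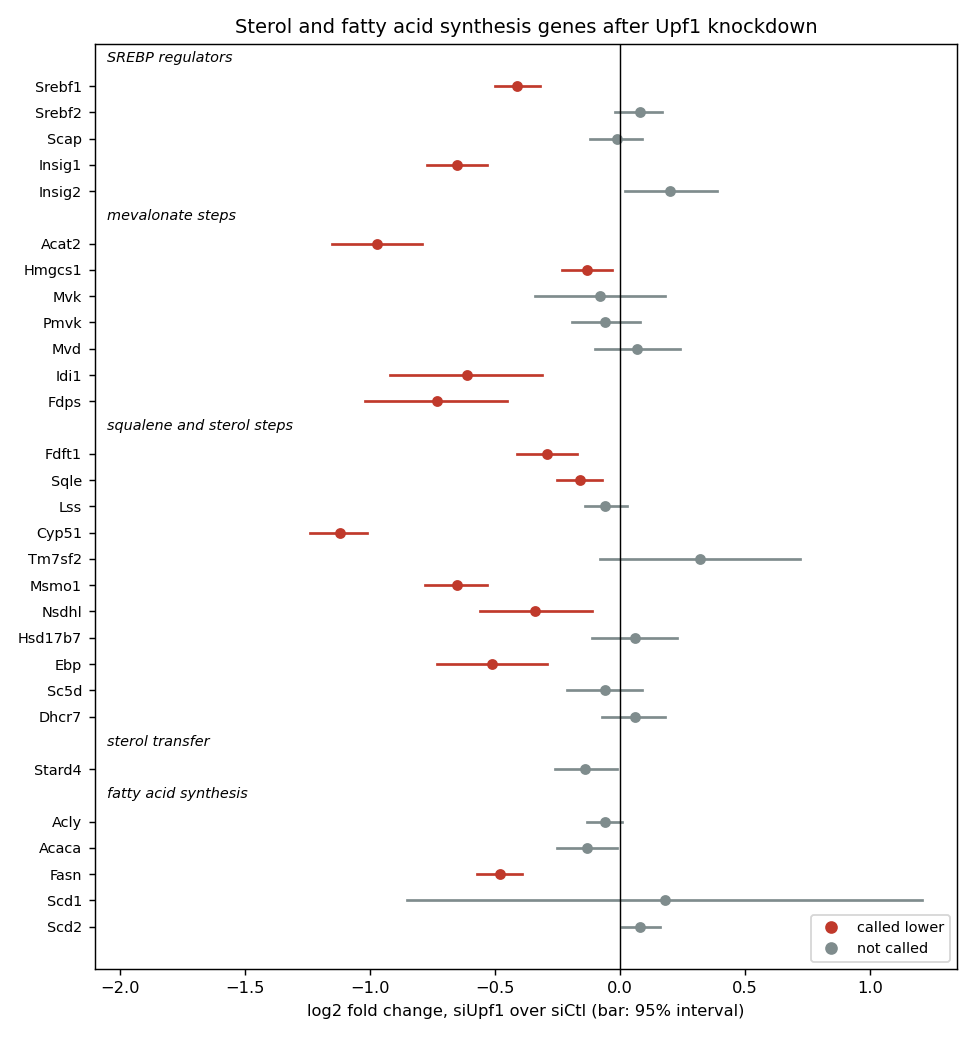
Log2 fold change of siUpf1 over siCtl for the 29 genes, grouped by role, with DESeq2's 95% interval as a bar (n = 2 siCtl and 3 siUpf1 libraries). The 13 genes called lower (red) lie between -1.12 and -0.13, and the 16 genes not called (grey) between -0.14 and 0.32.

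Promoter sequences were examined because SREBPs act at promoters together with NF-Y, which binds CCAAT boxes, and SP1, which binds GC boxes. RefSeq windows of GRCm38.p6, from 250 bases before to 50 bases after the annotated start, were found for 23 of the 29 genes (31 windows) and not for Fdps, Fdft1, Sqle, Stard4, Scd1 and Scd2. The letters CCAAT or, on the other strand, ATTGG were in the windows of 20 of the 23 genes (87%), beside 41.1% of all 27025 genes with a window and 43.3% of those tested. They were found in 9 of the 10 genes that fell and in 11 of the 13 that were not called. The GC box GGGCGG or CCGCCC was also found in 20 of the 23, beside 38.2% of all genes and 67.4% of those tested. The E-box CACGTG, which reads the same on both strands, was found in 5 of the 23 (21.7%), beside 8.09% and 11.5%. For the sterol regulatory element, only the form TCACNCCAC or GTGGNGTGA was searched. It was found only in the window of Hmgcs1, beside 1.44% of all genes with a window. Other forms of the element were not searched, so windows without this match may still hold one. None of the matches of different motifs overlapped in the genes' windows. Matches are descriptions of these letters and not measured binding sites.

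The windows of 4 genes that fell in different parts of the pathways are shown with those of Hmgcs1 and Mvk. The 4 are Cyp51 (chr5:4104648-4104947, minus strand), Insig1 (chr5:28071162-28071461, plus strand), Msmo1 (chr8:64733529-64733828, minus strand) and Fasn (chr11:120824498-120824797, minus strand). Hmgcs1 (chr13:119690101-119690400, plus strand) holds the only match to the searched form of the sterol regulatory element. Mvk (chr5:114444019-114444318, plus strand) holds the most CCAAT boxes and was not called. Capitals mark the CCAAT box on either strand and the searched form TCACNCCAC, and each run is written 5′ to 3′ on the gene's strand.
Cyp51: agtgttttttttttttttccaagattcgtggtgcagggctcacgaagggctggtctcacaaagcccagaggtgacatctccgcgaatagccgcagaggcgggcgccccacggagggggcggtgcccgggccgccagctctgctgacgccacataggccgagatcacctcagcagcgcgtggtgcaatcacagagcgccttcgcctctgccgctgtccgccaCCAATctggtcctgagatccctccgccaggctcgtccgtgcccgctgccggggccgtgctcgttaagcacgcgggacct
Insig1: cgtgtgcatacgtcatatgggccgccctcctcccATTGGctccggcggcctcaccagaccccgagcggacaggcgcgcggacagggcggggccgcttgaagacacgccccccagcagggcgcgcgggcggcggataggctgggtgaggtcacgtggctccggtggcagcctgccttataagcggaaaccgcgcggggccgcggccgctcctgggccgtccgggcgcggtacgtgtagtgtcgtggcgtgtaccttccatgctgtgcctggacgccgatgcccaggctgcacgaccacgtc
Msmo1: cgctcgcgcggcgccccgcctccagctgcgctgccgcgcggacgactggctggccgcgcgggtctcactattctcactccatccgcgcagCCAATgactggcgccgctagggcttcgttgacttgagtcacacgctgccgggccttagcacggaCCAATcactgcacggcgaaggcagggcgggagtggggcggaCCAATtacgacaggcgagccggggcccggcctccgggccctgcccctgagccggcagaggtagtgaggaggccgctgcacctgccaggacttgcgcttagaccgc
Fasn: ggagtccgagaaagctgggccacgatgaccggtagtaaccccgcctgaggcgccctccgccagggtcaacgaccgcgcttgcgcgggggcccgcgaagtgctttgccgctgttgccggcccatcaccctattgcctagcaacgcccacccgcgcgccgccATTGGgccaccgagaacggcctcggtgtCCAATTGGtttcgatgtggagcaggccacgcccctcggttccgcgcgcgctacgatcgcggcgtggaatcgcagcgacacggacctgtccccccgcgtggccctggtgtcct
Hmgcs1: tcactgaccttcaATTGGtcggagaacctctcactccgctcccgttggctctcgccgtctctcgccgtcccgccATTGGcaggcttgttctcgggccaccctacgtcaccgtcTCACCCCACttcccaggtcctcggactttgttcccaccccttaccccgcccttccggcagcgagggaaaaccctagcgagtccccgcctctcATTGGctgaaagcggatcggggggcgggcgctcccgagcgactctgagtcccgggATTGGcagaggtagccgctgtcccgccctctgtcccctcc
Mvk: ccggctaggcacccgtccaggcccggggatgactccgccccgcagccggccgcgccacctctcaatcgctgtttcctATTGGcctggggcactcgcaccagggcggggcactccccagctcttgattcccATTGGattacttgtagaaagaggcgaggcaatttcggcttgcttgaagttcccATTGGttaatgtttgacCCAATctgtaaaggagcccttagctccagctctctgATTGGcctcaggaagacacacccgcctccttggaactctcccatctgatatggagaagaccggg

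The single CCAAT box of Cyp51 starts at position -29 from the annotated start and that of Insig1, on the other strand, at -216. Msmo1 holds 3, which start at -160, -96 and -55, and Fasn holds 3, of which those at -62 and -59 overlap. In Hmgcs1, the sterol regulatory element begins at -137 and is flanked by CCAAT boxes at -176 and -45. The window of Mvk holds 5 CCAAT boxes, and Mvk had a log2 fold change of -0.08 that was not called. Hmgcs1 and Nsdhl, whose windows hold 4 each, were called lower. A relation between the number of boxes and the change was not tested.

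Of the 5 SREBP regulators, 2 were called lower (40%, beside 22.9% of all genes tested). In each paralogous pair, 1 member was lower and the other was not called. Insig1, which encodes the INSIG protein that is itself an SREBP target (chromosome 5, 28071363 to 28078662 of GRCm38), had 2619 and 2517 normalised counts in siCtl and 1641, 1635 and 1626 in siUpf1. The 3 siUpf1 libraries lay close to each other and below both siCtl libraries (63.6% of the siCtl mean, log2 fold change -0.65, SE 0.0609, DESeq2 adjusted p = 2.58e-25). Insig2, which encodes the second INSIG protein, had 612 and 631 counts in siCtl and 727, 705 and 715 in siUpf1. Its groups did not overlap either, in the opposite direction, but its log2 fold change of 0.20 (SE 0.0944) was not called by DESeq2 (adjusted p = 0.0663), while edgeR gave an adjusted p of 0.00841. Its adjusted p-values over the alternatives were 0.00841 to 0.344. The log2 ratio of Insig1 to Insig2 was 2.1 and 2 in siCtl and 1.18, 1.21 and 1.19 in siUpf1, a difference of -0.85 (two-sided exact permutation p = 0.1, the smallest that 2 against 3 libraries allow).

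Srebf1 encodes the SREBP that mainly drives fatty acid genes. It had 7869 and 7880 normalised counts in siCtl and 5824, 6209 and 5791 in siUpf1, all below both siCtl libraries (75.5% of the siCtl mean, log2 fold change -0.41, SE 0.0467, DESeq2 adjusted p = 4.22e-17). Srebf2 encodes the SREBP that mainly drives cholesterol genes, and its libraries had 10815 and 10844 counts in siCtl and 10913, 12026 and 11310 in siUpf1. It was not called (log2 fold change 0.08, SE 0.0466, DESeq2 adjusted p = 0.186), and it passed the threshold only without siUpf1 replicate 1 (log2 fold change 0.11, adjusted p = 0.0479, range over the alternatives 0.0479 to 0.786). The log2 ratio of Srebf1 to Srebf2 was -0.46 in both siCtl libraries and -0.91, -0.95 and -0.97 in siUpf1 (difference -0.48, two-sided exact permutation p = 0.1, again the smallest possible). Scap, whose product escorts SREBPs to the Golgi, had 3570 and 3573 counts in siCtl and 3397 to 3682 in siUpf1, so the siCtl values lay inside the siUpf1 range (log2 fold change -0.01, 95% interval -0.12 to 0.09). Transcripts of both SREBP genes were abundant, at 147 (Srebf1) and 171 (Srebf2) TPM in siCtl (a level scaled to transcript length and to the library), where Insig1 was at 76.2 and Insig2 at 18.5.

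Of the 7 genes that lead from acetyl-CoA to farnesyl diphosphate, 4 fell (57.1%, beside 22.9% of all genes tested) and 3 were not called. The falls lay at both ends of this branch. Acat2, which joins acetyl-CoA units in the cytosol (chromosome 17, 12942890 to 12960747), had 1122 and 1188 normalised counts in siCtl and 633, 582 and 554 in siUpf1. This was 51.1% of the siCtl mean (log2 fold change -0.97, SE 0.0921, DESeq2 adjusted p = 1.91e-24), and the highest siUpf1 library was below the lower siCtl library. Acat2 shares 35.3% of its 100-base windows with Acat3 or Tcp1, so the counting of its reads is uncertain. Hmgcs1, the cytosolic synthase of the next step, fell far less, from 3393 and 3362 counts in siCtl to 3154, 3076 and 3033 in siUpf1 (log2 fold change -0.13, SE 0.0524, DESeq2 adjusted p = 0.0322). This call was lost in 7 of 14 alternatives (range of adjusted p-values 0.00343 to 0.359), among them without siCtl replicate 1 (0.201), siCtl replicate 3 (0.16), siUpf1 replicate 2 (0.0826) or siUpf1 replicate 3 (0.148).

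The kinases and the decarboxylase in the middle of the branch did not pass the test. The mevalonate kinase gene Mvk had 403 and 411 normalised counts in siCtl and 344, 447 and 373 in siUpf1, with siCtl inside the siUpf1 range (95% interval of the log2 fold change -0.34 to 0.18). Pmvk, which encodes the next kinase, had 1821 and 1862 counts against 1712, 1894 and 1720 (interval -0.19 to 0.08), and the decarboxylase gene Mvd had 1209 and 1259 against 1271, 1435 and 1187 (interval -0.10 to 0.24). Changes within these intervals were not detectable at this depth and number of libraries. Idi1, the isomerase that interconverts the isoprenoid building blocks, had 285 and 297 counts in siCtl and 193, 202 and 177 in siUpf1 (65.5% of the siCtl mean, log2 fold change -0.61, SE 0.156, DESeq2 adjusted p = 0.000306). Fdps, which condenses these units to farnesyl diphosphate (chromosome 3, 89093588 to 89101959), had 345 and 396 counts in siCtl and 230, 231 and 209 in siUpf1 (60.3%, log2 fold change -0.73, SE 0.145, DESeq2 adjusted p = 2.26e-06). Neither gene's groups overlapped, and both kept their call in all 14 alternatives. Idi1 shares 20% and Fdps 18.9% of its 100-base windows with pseudogenes that held 0 to 3 counts, and 26.7% of the exon bases of Fdps are overlapped on the same strand by Gm43738, which held 0 counts. Both levels are therefore uncertain. Idi1 had the lowest level of the branch, at 7.7 TPM in siCtl, and Pmvk the highest, at 123 TPM.

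Of the 11 genes that lead from farnesyl diphosphate to cholesterol, 6 fell (54.5%, beside 22.9% of all genes tested) and 5 were not called. Cyp51 encodes the cytochrome P450 that demethylates lanosterol, and it changed most of the 29 genes. On chromosome 5 (4081145 to 4104746 of GRCm38), it had 5829 and 5682 normalised counts in siCtl and 2652, 2803 and 2475 in siUpf1, so the highest siUpf1 library was below the lower siCtl library (45.9% of the siCtl mean, log2 fold change -1.12, SE 0.0571, DESeq2 adjusted p = 8.02e-84). Among all 15191 genes tested its rank from the lowest log2 fold change was 291, and that of Acat2 was 450. Its log2 fold change was -1.17 to -1.08 over the 14 alternatives.

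The enzymes that remove a pair of methyl groups from the sterol ring after Cyp51 differed. Msmo1, the methyl oxidase (chromosome 8, 64718139 to 64733792), had 2542 and 2532 normalised counts in siCtl and 1648, 1655 and 1539 in siUpf1 (63.6% of the siCtl mean, log2 fold change -0.65, SE 0.0632, DESeq2 adjusted p = 1.16e-23). Nsdhl, the decarboxylating dehydrogenase, had 504 and 521 counts in siCtl and 406, 414 and 400 in siUpf1 (log2 fold change -0.34, SE 0.113, DESeq2 adjusted p = 0.00815). Neither gene's groups overlapped, but Nsdhl lost its call without siCtl replicate 1 (adjusted p = 0.0683), siCtl replicate 3 (0.135) or siUpf1 replicate 3 (0.0567), within a range of 0.00094 to 0.164 over all alternatives. Hsd17b7, the ketoreductase of the complex, had 935 and 861 counts in siCtl and 888, 939 and 973 in siUpf1, with overlapping groups (95% interval -0.11 to 0.23).

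Before and after these steps the picture was also mixed. Fdft1, the squalene synthase gene, fell from 2335 and 2349 normalised counts in siCtl to 1951, 1953 and 1860 in siUpf1 (82% of the siCtl mean, log2 fold change -0.29, SE 0.0606, DESeq2 adjusted p = 1.11e-05). Sqle, the squalene epoxidase gene, fell from 5159 and 5111 counts to 4616, 4586 and 4629 (89.8%, log2 fold change -0.16, SE 0.0458, DESeq2 adjusted p = 0.0022). Sqle was not called without siCtl replicate 1 (adjusted p = 0.067, range over the alternatives 3.77e-05 to 0.209). Lss, which closes the rings to lanosterol, had 5653 and 5613 counts against 5338, 5516 and 5400. All siUpf1 libraries of Lss were below both siCtl libraries, yet the difference was small and was not called (96.2%, 95% interval -0.14 to 0.03). It was called only after removal of the per-library trends in length and GC content (log2 fold change -0.14, adjusted p = 0.00261, range 0.00261 to 0.612). Ebp, a sterol isomerase gene, fell from 605 and 653 counts to 430, 487 and 417 (70.7%, log2 fold change -0.51, SE 0.112, DESeq2 adjusted p = 2.81e-05).

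Sc5d and Dhcr7, genes of the last steps, did not pass the test. Tm7sf2 and Stard4, which do not belong to these last steps, were not called by DESeq2 either. Sc5d, a sterol desaturase gene, had 1143 and 1097 normalised counts in siCtl and 1115, 1071 and 1037 in siUpf1 (95% interval -0.21 to 0.09). Dhcr7, whose product reduces the last intermediate to cholesterol, had 2537 and 2475 counts against 2561, 2777 and 2483 (interval -0.07 to 0.18). Both genes had overlapping groups. Tm7sf2, a sterol reductase gene, had 166 and 142 counts in siCtl and 161, 242 and 175 in siUpf1. Its log2 fold change of 0.32 (SE 0.204) was the highest of the 29 genes, but was not called (DESeq2 adjusted p = 0.205) and was 0.13 without siUpf1 replicate 2, the library above all others. Of its exon bases, 12.1% are shared with Vps51 on the same strand, and its level is uncertain. Stard4, a cytosolic sterol transfer protein that SREBPs also induce, had 1966 and 1893 counts in siCtl and 1777, 1717 and 1766 in siUpf1, with no overlap (log2 fold change -0.14, SE 0.0635). DESeq2 did not call it (adjusted p = 0.0657), whereas edgeR gave an adjusted p of 0.0312 (range over the alternatives 0.0145 to 0.457).

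**Figure D2:**
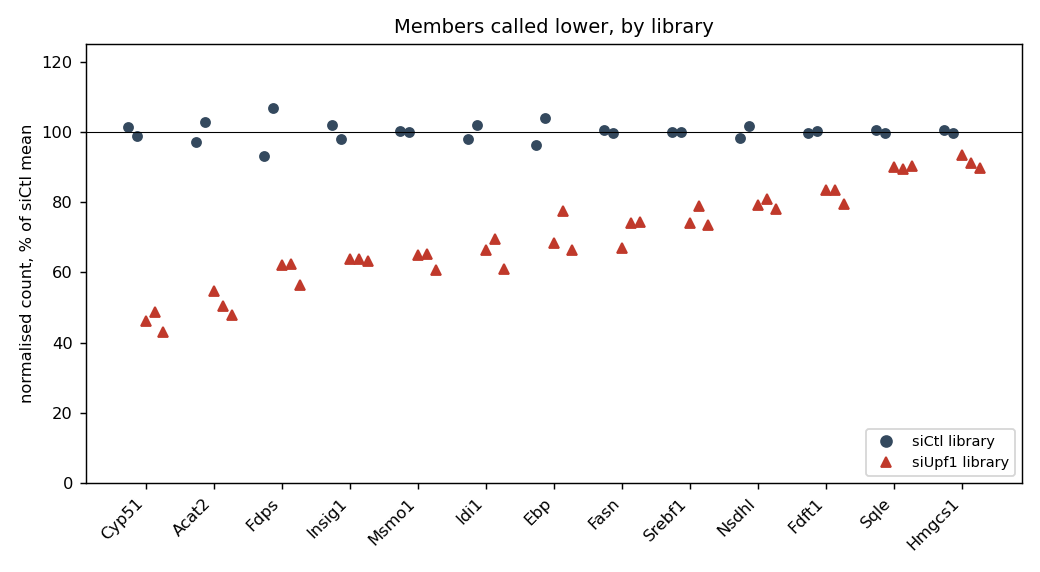
Normalised count of each library as a percentage of the siCtl mean for the 13 genes called lower, ordered by their fold change (circles for the 2 siCtl and triangles for the 3 siUpf1 libraries). For every gene shown, all siUpf1 libraries lie below both siCtl libraries, with group means from 45.9% (Cyp51) to 91.4% (Hmgcs1) of siCtl.

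Of the 5 genes of fatty acid synthesis, only Fasn was called (20%, beside 44.9% of all genes tested). Fasn, the fatty acid synthase gene (chromosome 11, 120805846 to 120824547), had 29804 and 29587 normalised counts in siCtl and 19856, 21957 and 22096 in siUpf1 (71.7% of the siCtl mean, log2 fold change -0.48, SE 0.0473, DESeq2 adjusted p = 1.02e-22). Its siUpf1 libraries were all below both siCtl libraries, with replicate 1 the lowest. Acly, which makes cytosolic acetyl-CoA from citrate, had 27568 and 27172 counts in siCtl and 25644, 26556 and 26498 in siUpf1. Its groups did not overlap, but the difference was small and not called (95.8%, log2 fold change -0.06, 95% interval -0.13 to 0.01). Acly was called only after removal of the length and GC trends (log2 fold change -0.07, DESeq2 adjusted p = 0.0444, range over the alternatives 0.0444 to 0.547). Acaca, the acetyl-CoA carboxylase gene, had 2309 and 2249 counts against 2050, 2105 and 2093 (log2 fold change -0.13, SE 0.0592, DESeq2 adjusted p = 0.0601). After removal of the length and GC trends, Acaca reached -0.28 with an adjusted p of 3.25e-06, the lowest in a range of up to 0.371, and edgeR also called it (0.0328). Acaca shares 42.8% of its 100-base windows with Gm5182, which held 69 to 79 counts, so its level is uncertain.

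The stearoyl-CoA desaturases, which introduce the double bond of oleate, were present mainly as Scd2, the form typical of brain. Scd2 had 39738 and 37423 normalised counts in siCtl and 40787, 41387 and 40455 in siUpf1, all above both siCtl libraries (106%, log2 fold change 0.08, 95% interval 0.01 to 0.16). It was not called by DESeq2 (adjusted p = 0.0642), and was called only when libraries were scaled to total counts (0.0382, range over the alternatives 0.0382 to 0.611). Scd1 had 15 to 21 counts in siCtl and 20 to 21 in siUpf1, and its interval of -0.85 to 1.21 leaves changes of that size undetectable at this depth. Per transcript length, Scd2 had the highest level of the 29 genes, at 566 TPM in siCtl and 607 in siUpf1, followed by Acly at 499 and 484 and Fasn at 236 and 171, while Scd1 was at 0.298 and 0.342.

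**Figure D3:**
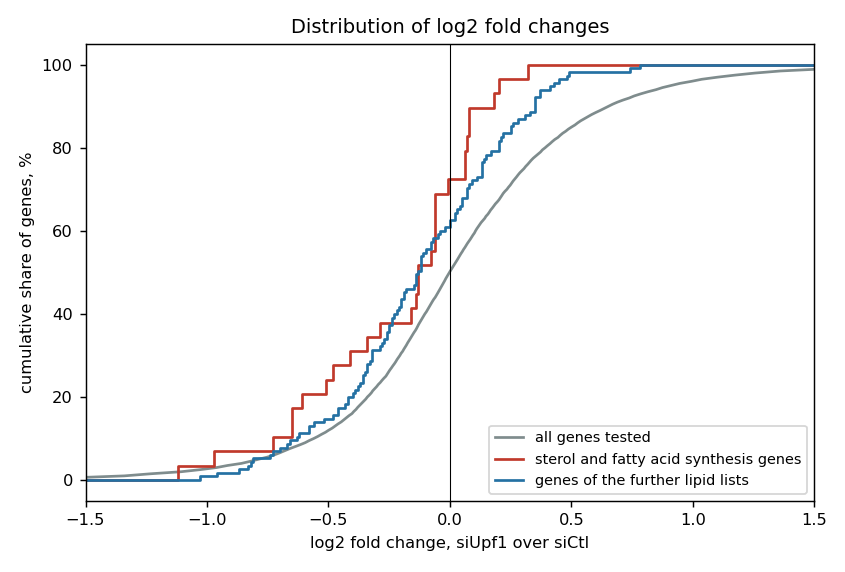
Cumulative share of genes, in percent, by log2 fold change of siUpf1 over siCtl for the 29 genes (red), for the 115 tested genes of 5 further lipid lists (blue) and for all 15191 genes tested (grey). The red curve has a median of -0.13, left of -0.00 for the grey one, and runs from -1.12 to 0.32. The grey curve extends beyond both of these ends. The blue curve also has a median of -0.13 and reaches 0.78.

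Other genes of lipid metabolism moved in both directions. Of 120 genes in 5 further lists, 115 were tested, of which 49 were called lower (42.6%) and 22 higher (19.1%), beside 22.9% and 22.0% of all genes tested. Their median log2 fold change was -0.13, equal to that of the 29 genes. The difference between the lists was not tested. Glycerolipid genes of the elongation, desaturation and activation list were added after their values were seen. The pooled shares and median are therefore descriptions and not independent support.

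Of 18 genes for the cleavage, transport and turnover of SREBP complexes, 5 were lower (27.8%) and 5 higher (27.8%), near the 22.9% and 22.0% of all genes tested. Erlin2, which encodes an ER membrane scaffold of sterol-regulated protein degradation, fell to 56.1%, from 2383 and 2355 counts to 1324, 1362 and 1302 (log2 fold change -0.83, SE 0.0641, DESeq2 adjusted p = 5e-37). Vcp, the ATPase that extracts ubiquitinated ER proteins, had a log2 fold change of -0.35, and Sec23a, a coat subunit of the vesicles that leave the ER, rose from 1789 and 1596 counts to 2376, 2245 and 2522 (log2 fold change 0.49, SE 0.0712, DESeq2 adjusted p = 3.54e-11).

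A list of fatty acid elongation, desaturation and activation, which also holds genes of citrate export and glycerolipid assembly, had 15 of 29 tested genes lower (51.7%, beside 22.9% of all genes tested) and 6 higher (20.7%, beside 22.0%). Agpat2, an acyltransferase that makes phosphatidic acid, fell from 386 and 425 normalised counts to 208, 190 and 195 (48.8% of the siCtl mean, log2 fold change -1.03, SE 0.143, DESeq2 adjusted p = 5.65e-12). Lpin1, a phosphatidate phosphatase (-0.74), and Gpam, a glycerol phosphate acyltransferase (-0.62), fell as well. Of the other glycerolipid genes of this list, added after their values were seen, Dgat1 was called lower (-0.32) and Dgat2 was not called (0.13). The shares of this list therefore only describe the genes chosen. The elongase gene Elovl7 rose from 274 and 229 counts to 431, 408 and 415 (log2 fold change 0.74, SE 0.135, DESeq2 adjusted p = 2.89e-07).

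Isoprenoid branches, which use farnesyl diphosphate for products other than sterols, had 7 of 18 genes lower (38.9%) and 5 higher (27.8%). Of all genes tested, 22.9% were lower and 22.0% higher. Coq2, which attaches the isoprenoid tail of ubiquinone, rose from 409 and 426 normalised counts to 732, 782 and 644 (172% of the siCtl mean, log2 fold change 0.78, SE 0.112, DESeq2 adjusted p = 2.51e-11). Dolk, the dolichol kinase gene, had 158 and 206 counts in siCtl and 246, 270 and 248 in siUpf1 (log2 fold change 0.48, SE 0.168, DESeq2 adjusted p = 0.0119). Its call depended on single libraries. Without siCtl replicate 1 its log2 fold change was 0.30 (adjusted p = 0.302) and without siUpf1 replicate 2 it was 0.44 (0.0703), in a range of adjusted p-values of 0.00253 to 0.302. Rce1, a protease of prenylated proteins (-0.46), and Rabggtb, a subunit of the enzyme that prenylates Rab proteins (-0.36), fell.

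Of 28 tested genes of sterol uptake, transport and efflux, 11 were lower (39.3%, beside 22.9% of all genes tested) and 5 higher (17.9%, beside 22.0%). The genes of both liver X receptors, the sensors of oxysterols, fell. Nr1h2 had 1666 and 1658 normalised counts in siCtl and 919, 948 and 971 in siUpf1 (56.9% of the siCtl mean, log2 fold change -0.81, SE 0.0735, DESeq2 adjusted p = 5.5e-27). Nr1h3 had few reads, with 136 and 163 counts against 72, 83 and 99 (log2 fold change -0.82, SE 0.233, DESeq2 adjusted p = 0.00132), and was not called without siCtl replicate 3 (-0.69, adjusted p = 0.112, range 0.000349 to 0.112). Soat1, which esterifies cholesterol for storage, fell to 60.1% (-0.73), and Stard5, a START-domain lipid-binding protein gene, to 63.5% (-0.66). Genes of fatty acid oxidation were lower in 11 of 22 cases (50%, beside 22.9% of all genes tested) and higher in 1 (4.55%, beside 22.0%). The carnitine carrier gene Slc25a20 (-0.70), the acyl-CoA dehydrogenase gene Acadl (-0.67), the carnitine palmitoyltransferase gene Cpt1a (-0.58) and Etfa, which passes electrons on from such dehydrogenases (-0.52), fell, so lower calls were found on the degradative as well as the synthetic side.

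**Figure D4:**
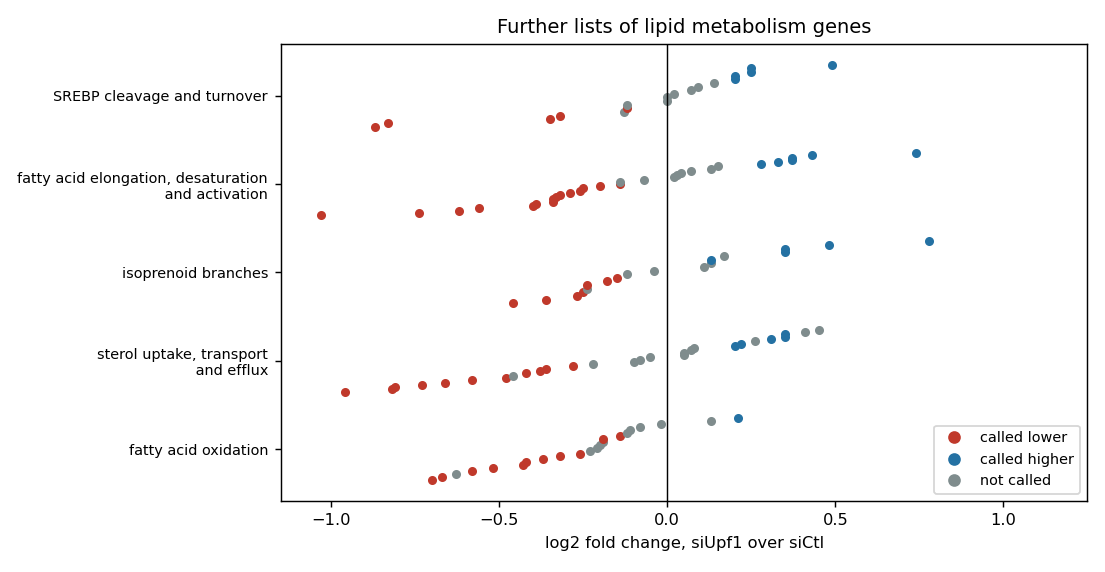
Log2 fold change of siUpf1 over siCtl for each tested gene of the 5 further lists (red, called lower, blue, called higher, grey, not called). Each list holds genes on both sides of 0, with 1 (fatty acid oxidation) to 6 (elongation, desaturation and activation) genes called higher and 5 to 15 called lower.

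Annotation features that could bear on the knockdown were listed for the 29 genes. GENCODE M21 annotates an NMD isoform for 5 of them (Mvd, Fdft1, Tm7sf2, Dhcr7 and Scd2), beside 23.9% of all genes tested. Their median log2 fold change was 0.07 and 1 of them, Fdft1, was called lower, whereas the 24 genes without such an isoform had a median of -0.14 and 12 lower calls. Over all genes tested the medians were -0.04 with and 0.01 without such an isoform, the opposite order, and 22.9% were called lower. Counts per gene do not separate isoforms. The 7-mer GATAATT, which pairs with the seed of the antisense strand of the Upf1 siRNA, was found in the 3′ UTRs of Idi1, Sc5d and Stard4, beside 7.73% of 12581 mRNAs, and AACCTTG, which pairs with the seed of its sense strand, in those of Cyp51 and Fasn, beside 9.88%. Of these 5 genes, 3 were called lower and their median was -0.48. Of the other 24 genes, 10 were called lower and their median was -0.07, where 22.9% of all genes tested were called lower. The part of such sites in the falls of Cyp51, Fasn and Idi1 was not tested. Beyond the 4 genes named above (Acaca, Acat2, Idi1 and Fdps), the shared share of 100-base windows was under 10%, and 22 of the 29 genes shared none with another gene.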

How the data were processed

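RNA-seq libraries of polyadenylated RNA (TruSeq Stranded mRNA, single-end reads of 100 nt) from 2 siCtl and 3 siUpf1 samples of N2A cells were grouped by their labels. The deposited values were raw counts per gene, which the authors made by trimming reads with fastp, mapping them to GRCm38.p6 with STAR 2.7.0f in two-pass mode and counting exons on the reverse strand with featureCounts (Subread 1.6.4). Totals were 20402205 to 27717594 counts per library.

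From these counts, siUpf1 was compared with siCtl by the Wald test of DESeq2 1.42.0 in R 4.3.3. The whole table was fitted with a term for the group, size factors were medians of ratios, low genes were filtered independently and p-values were adjusted over all genes by Benjamini and Hochberg's method. Genes were called at an adjusted p-value under 0.05. The quasi-likelihood test of edgeR 4.0.16 was 1 of 14 alternatives, with other size factors, count filters, shrunken fold changes, a replicate block, removal of length and GC trends, mitochondrial genes and Gm42418 left out, and omission of each library. The script was tested on simulated data. Positions, transcript lengths for TPM, 3′ UTRs and NMD isoforms came from GENCODE M21 (same build, 99.8% of identifiers matched), 1 representative transcript per gene. Promoter windows came from RefSeq.

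The 29 genes, the further lists and the tests were chosen with earlier results of these data known. All 29 genes and Upf1 were named, and from each further list up to 4 called genes with the largest change and a mean of at least 100 normalised counts. Marker genes are given by counts and ranges. Some genes that this rule names are not reported here. With 2 libraries against 3, an exact permutation test cannot give a p-value under 0.1.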

Additional observations from a re-analysis of the deposited data

How the results depend on the processing

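Between 10 and 17 of the 29 genes were called lower over the 14 alternatives, and 10 to 13 of the 13 genes called lower remained so in each. The number called higher was 0 in 10 alternatives and 1 under edgeR (Insig2), scaling to total counts (Scd2), a filter that required 10 counts in 2 or more libraries (Insig2) and without siUpf1 replicate 1 (Srebf2). The median log2 fold change of the 29 genes was -0.14 with TMM size factors, -0.11 with total counts, -0.16 after removal of length and GC trends, and -0.14 to -0.11 when a library was left out. The share of all genes called lower was 11.3% without independent filtering, where 28121 genes were tested.

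Leaving out each library in turn gave 10 to 13 genes lower and 0 to 1 higher of the 29, and 34 to 44 lower and 15 to 20 higher of the further lists. Leaving out a siCtl library leaves 1, which is assumed to vary like the others. With the replicate block, 10 of the 29 genes were lower and 0 higher, while 15.6% of all genes tested were lower. Of the further lists, 25 genes were lower and 11 higher with the block, beside 49 and 22 without it. Calls lost under it were those of Hmgcs1 (adjusted p = 0.359), Sqle (0.209), Nsdhl (0.164), Dolk (0.203) and Nr1h3 (0.0733), which is no sign of weaker effects. The numbers did not pair the libraries: deviations from the group means correlated at -0.0479 for number 1 and -0.059 for number 3, and number 2 has no siCtl library.

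Signs changed only for genes without a call. Scap was at 0.01 with total counts, Mvd at -0.01 with the replicate block and Pmvk at 0.01 after removal of length and GC trends. When a library was left out, Scap was between -0.04 and 0.01, Mvd between -0.01 and 0.13, Hsd17b7 between -0.01 and 0.11 and Mvk between -0.18 and 0.00. Of 403 values of the 29 genes under the alternatives, 372 kept their direction and side of the threshold, 13 lost and 11 gained a call, and 7 changed sign. Of 294 values of Upf1 and the genes named from the further lists, 5 lost a call. The causes were not tested. The siCtl spread rests on 2 libraries, and genes with few reads, such as Scd1, are limited by depth.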
